A study of Mus musculus with 15 samples.

Results

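Integrins and cadherins are the surface receptors through which a cell holds to its matrix and to its neighbours. The genes described here were all transcripts of the deposited expression table whose gene symbol is that of an integrin subunit, a cadherin other than the endothelial Cdh5, a protocadherin, a Cadm cell adhesion molecule or a nectin. Integrin symbols were taken as Itga or Itgb followed only by digits or the letters v, l, m or x, so subunits with other letters were not covered. They numbered 62 of the 12089 transcripts in the table, out of 124 annotated mouse genes with such symbols. Of the 62, 17 were integrin subunits (matrix adhesion), 44 were cadherins, protocadherins, Cadm genes or nectins (cell-cell adhesion), and 1 was Itgbl1, an integrin-like secreted protein that is not a receptor subunit. No value was listed for 62 of the 124 genes. Among them were 46 of 57 clustered protocadherins and the integrin subunits Itgb6, Itgb7 and Itgb2l. The 4 leukocyte integrins covered by these symbols (Itgal, Itgam, Itgax and Itgb2) were also without a value.

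The samples were dental mesenchyme of the mandibular first molar from E14.5 embryos of the ICR mouse, an outbred strain. Dispase was used to remove the epithelium and trypsin to make single cells (mouse dental mesenchymal cells, mDMCs), which were either taken directly (0 h, 3 libraries) or grown on plates with fetal bovine serum for 12 h (2 libraries), 24 h (3), 36 h (3) or 48 h (3). A further library was made from dental mesenchymal tissue without culture. No gene was altered and no drug was given, and the labels do not say whether the libraries of a time point came from separate litters or cultures, so the p-values measure the spread between these libraries, which may be technical.

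An integrin is a pair of 1 alpha and 1 beta chain that binds matrix proteins outside the cell and, through talin, kindlin, vinculin and the kinase ILK, the actin cytoskeleton inside. Classical cadherins bind the same cadherin on the next cell and are tied to actin by beta- and alpha-catenin. Nectins and Cadm proteins are immunoglobulin-type receptors at cell junctions, and protocadherins are a large cadherin family best known for recognition between neurons. In the tooth germ the mesenchyme condenses beneath the epithelium, so that its cells lie close together.

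Levels are given as the scores of the table, normalized whole numbers without a stated unit. Every library had the same median score, 721, and the same largest score, 127101, and library totals ran from 21357605 to 21365980, so sequencing depth is not known from the table. High scores recur as fixed steps: Itgb1 stood at 23242 in all 0 h libraries and at 70704 in all 11 cultured libraries. The spread between replicates is therefore understated for the highest transcripts. All 8 dental mesenchyme markers examined were present in all libraries, and all but Dlx1 had every 48 h score below every 0 h score. Prrx1 had the highest score of them in each library (31853 in the tissue, 40667 to 50479 at 0 h and 31853 to 36409 at 48 h), while Pax9 went from 3850 to 5959 at 0 h to 619 to 1056 at 48 h and Pdgfra from 16448 in each 0 h library to 2485 to 2608. The part of these markers' change in the members' changes was not tested. The 0 h replicate 1 stood apart by its epithelial markers. The sum of 7 of them was 13504 there, against 1466 and 1842 in the other 0 h libraries and 4902 in the tissue, and at 12 h and 48 h the calls against 0 h that changed without it are named. Fewer cells of a type and less RNA per cell cannot be told apart in such bulk libraries.

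Upstream sequences of 6 members are shown, those with the 3 largest called rises and the 3 largest called falls at 48 h among members whose libraries did not overlap and whose gene start is given by RefSeq (GRCm38.p6, the build also called mm10) within 1000 bases of the listed transcript. They were picked after the values were seen. Such a start was matched for 28 of the 62 members. Each sequence is the 250 bases before the start, 5′ to 3′ along the gene's strand. Capitals mark a match to a searched motif.
Itga3, chr11:95069199-95069448, minus strand, higher in culture: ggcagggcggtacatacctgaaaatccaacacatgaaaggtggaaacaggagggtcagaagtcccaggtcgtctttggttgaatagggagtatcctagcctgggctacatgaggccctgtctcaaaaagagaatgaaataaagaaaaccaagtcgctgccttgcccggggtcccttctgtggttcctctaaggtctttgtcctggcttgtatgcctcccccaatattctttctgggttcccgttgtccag
Itgb1, chr8:128685404-128685653, plus strand, higher in culture: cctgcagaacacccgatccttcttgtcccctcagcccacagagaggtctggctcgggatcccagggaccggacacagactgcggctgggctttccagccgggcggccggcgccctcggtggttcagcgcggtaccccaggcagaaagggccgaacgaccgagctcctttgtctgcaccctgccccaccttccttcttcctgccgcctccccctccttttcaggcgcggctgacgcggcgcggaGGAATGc
Itgav, chr2:83724147-83724396, plus strand, higher in culture: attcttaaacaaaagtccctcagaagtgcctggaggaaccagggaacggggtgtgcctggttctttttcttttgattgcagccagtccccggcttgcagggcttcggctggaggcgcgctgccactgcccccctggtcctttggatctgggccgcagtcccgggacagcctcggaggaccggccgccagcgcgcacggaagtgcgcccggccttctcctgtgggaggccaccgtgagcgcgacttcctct
Cadm4, chr7:24481773-24482022, plus strand, lower in culture: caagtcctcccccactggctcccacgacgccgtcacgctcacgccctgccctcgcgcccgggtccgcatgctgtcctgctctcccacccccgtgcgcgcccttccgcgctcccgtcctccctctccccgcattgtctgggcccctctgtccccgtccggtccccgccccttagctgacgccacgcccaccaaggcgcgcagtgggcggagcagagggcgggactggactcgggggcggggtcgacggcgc
Cdh24, chr14:54641365-54641614, minus strand, lower in culture: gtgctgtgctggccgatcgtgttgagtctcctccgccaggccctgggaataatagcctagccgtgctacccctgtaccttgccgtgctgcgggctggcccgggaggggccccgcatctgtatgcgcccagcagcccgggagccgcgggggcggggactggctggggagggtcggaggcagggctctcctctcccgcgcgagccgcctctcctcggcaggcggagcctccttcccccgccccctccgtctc
Cdh12, chr15:21111202-21111451, plus strand, lower in culture: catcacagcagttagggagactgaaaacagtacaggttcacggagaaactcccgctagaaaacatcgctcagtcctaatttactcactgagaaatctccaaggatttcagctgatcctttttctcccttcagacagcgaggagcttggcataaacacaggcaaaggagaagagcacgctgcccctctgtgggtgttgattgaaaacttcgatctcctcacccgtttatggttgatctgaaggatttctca

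Both strands of the 28 promoters were searched for 4 motifs, none of which contains another. They were the AP-1 letters TGANTCA, the TEAD letters GGAATG, the CArG box of serum response factor and the E-box letters CAGGTG. The TEAD letters were found in 3 of 28 members' promoters and in 10.3% of the 8537 promoters of the table's genes. In Itgb1 it lies 7 to 2 bases upstream of the start. The E-box letters were found in 4 of 28 (13.7% of all), 1 of them in Itga11 at 121 to 116 bases upstream. The AP-1 letters were found in 1 of 28 (3.80% of all) and the CArG box in 0 of 28 (1.09% of all). Of the 6 promoters shown, Itgb1 held the TEAD letters and the other 5 held no motif of the 4. The median GC content was 64.0% for the 11 promoters of members higher at 48 h, 63.2% for the 13 of members lower and 60.8% for all 8537.

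In culture, integrin subunits were called in both directions from 12 h on, and few of them changed after that. Cell-cell adhesion genes were more often lower than higher, 15 of 44 lower at 12 h and 25 of 44 at 48 h. The lower ones at 48 h were mostly protocadherins, 11 of 11 clustered and 8 of 11 others (2 of these others were higher). Of the 4 Cadm genes 3 were lower. Type II cadherins were 3 higher and 3 lower, classical (type I) cadherins 1 and 0, remaining cadherins 1 and 0, and nectins 2 and 0. At 12 h, 19 of 62 members were higher than at 0 h (30.6%, against 29.9% of the 12079 transcripts tested) and 21 were lower (33.9%, against 28.3%), by limma with a Benjamini-Hochberg adjusted p below 0.05. Without 12 h replicate 1, 12 members were higher and 18 lower at 12 h (26.3% and 23.3% of all transcripts). At 48 h, 18 were higher (29%, against 37.1% of all) and 31 were lower (50%, against 34% of all). For all transcripts the median log2 change at 48 h was 0.03. It was 0.67 for the 17 integrin subunits and -0.91 for the 44 cell-cell adhesion genes. Within the 44 it was -1.36 and -1.46 for clustered and other protocadherins and -0.85 for Cadm genes. For type I, type II and remaining cadherins it was 0.52, -0.48 and 0.85, and for nectins 0.66. Among the integrin subunits 9 were higher, 5 lower and 3 were not called at 48 h, and among the cell-cell adhesion genes 9 were higher, 25 lower and 10 were not called. Without the 0 h replicate 1, these counts were 8 and 5 for integrin subunits and 8 and 25 for cell-cell adhesion genes.

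**Figure D1:**
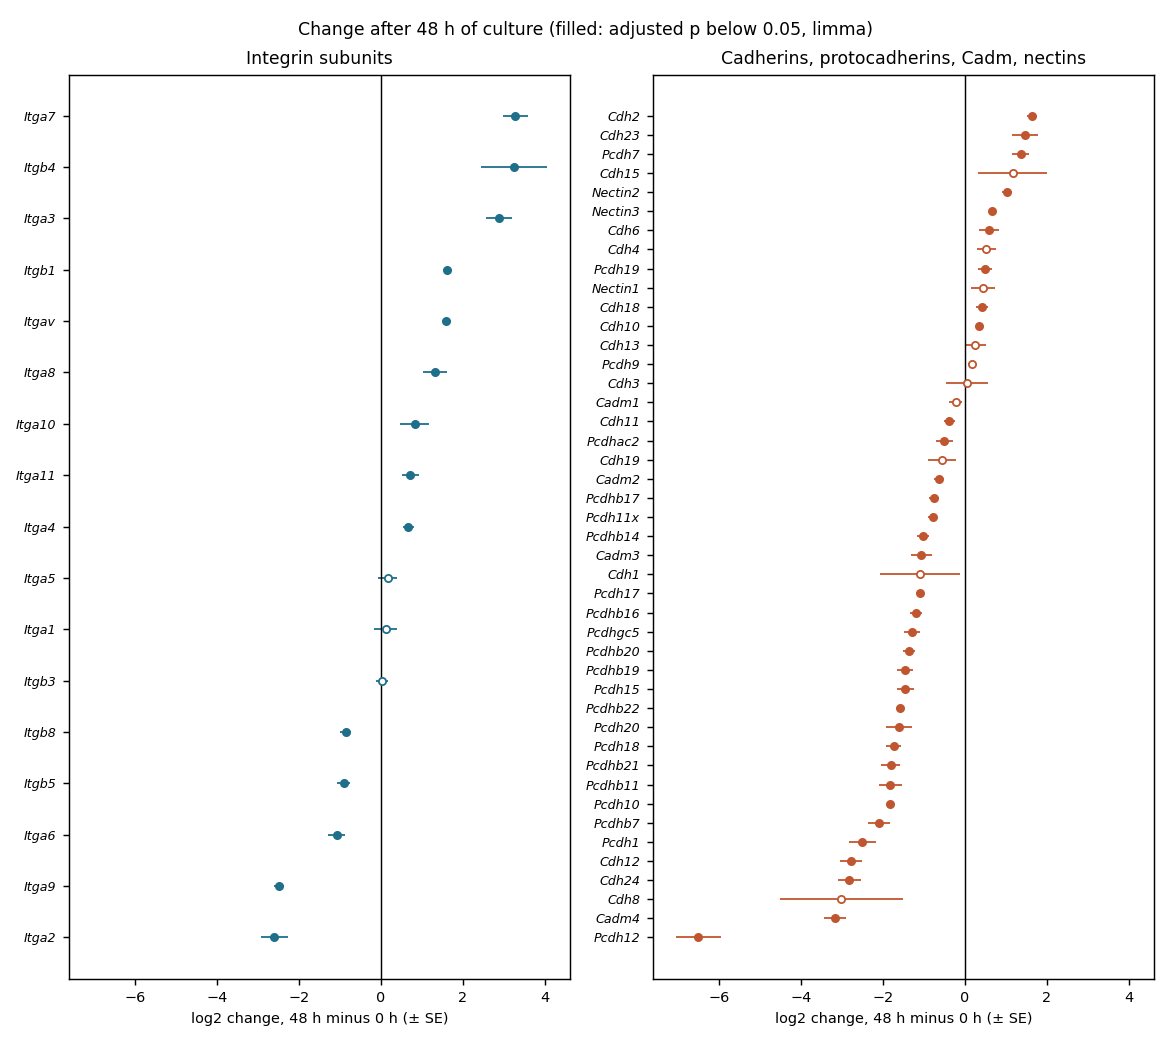
Log2 change at 48 h against 0 h (horizontal axis, limma estimate with its standard error) for 17 integrin subunits (left) and 44 cell-cell adhesion genes (right), 3 libraries per group. Filled points had a Benjamini-Hochberg adjusted p below 0.05 in limma. Of the integrin subunits 9 lie to the right and 5 to the left among the filled points, and of the cell-cell adhesion genes 9 lie to the right and 25 to the left, with Pcdh12 the lowest at -6.51.

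The mean of log2(score + 1) over the 17 integrin subunits was 9.56 in the tissue and 9.11 to 9.45 at 0 h, and it was 9.67 to 9.94 over the 11 cultured libraries. The same mean over the 44 cell-cell adhesion genes was 8.71 in the tissue, 8.59 to 8.63 at 0 h, 8.29 to 8.43 at 12 h, 7.89 to 8.08 at 24 h, 7.64 to 7.81 at 36 h and 7.69 to 7.80 at 48 h. The difference between the 2 lists was 0.84 in the tissue, 0.47 to 0.85 at 0 h, 1.39 to 1.41 at 12 h and 1.95 to 2.07 at 48 h. No cultured library overlapped the uncultured ones in this difference. These list means are descriptions, with each gene weighted equally on the log scale.

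**Figure D2:**
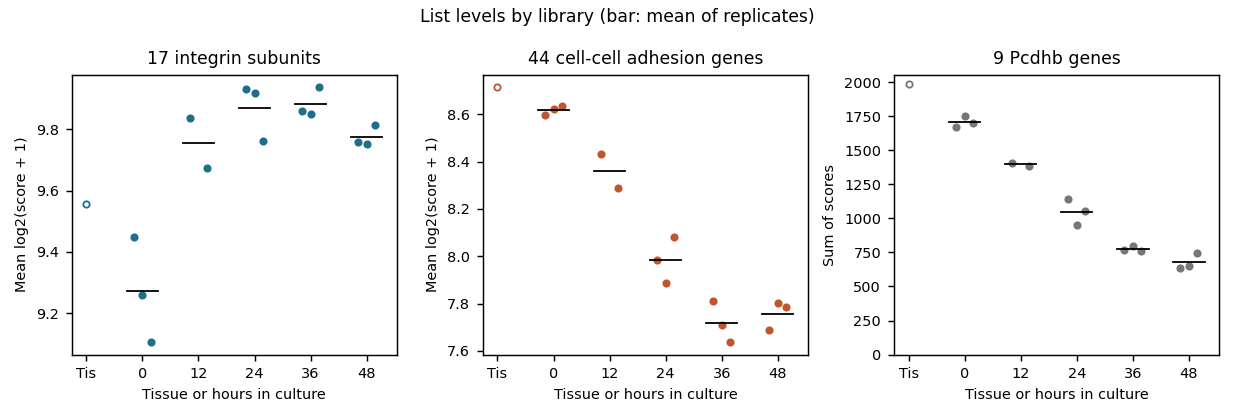
Mean log2(score + 1) of the 17 integrin subunits (left) and of the 44 cell-cell adhesion genes (middle), and the summed score of 9 beta protocadherins (right), for each library by group. Open points are the tissue library, filled points are mDMC libraries and bars are replicate means. The cell-cell adhesion mean was 8.59 to 8.63 at 0 h and 7.69 to 7.80 at 48 h, and the vertical axes of the first 2 panels do not start at 0.

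Itgb1, the beta chain shared by most matrix-binding integrins, had the highest score per kilobase of listed transcript of all integrin subunits (6092 per kb at 0 h and 18533 per kb at 48 h). Its listed transcript lies on chromosome 8 from 128685654 to 128733200 and has 16 exons. The score was 36423 in the tissue, 23242 in each 0 h library and 70704 in each of the 11 cultured libraries. All cultured libraries were thus at 1 value, 3.04-fold above 0 h (log2 change 1.60 ± 0.09 SE at 48 h; limma adjusted p = 1.3e-08). By rank, 13 transcripts stood above it in every cultured library and 43 to 83 in the uncultured ones. Because the score is tied to rank there, changes among 12, 24, 36 and 48 h could not be seen for this gene.

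Among the alpha chains that bind the RGD motif of fibronectin, vitronectin and related proteins, Itgav was called higher than at 0 h at all 4 times. Its transcript spans chromosome 2 from 83724397 to 83806916. Itgav scored 3554 in the tissue and 4187, 4818 and 5218 at 0 h. In culture it scored 8295 and 7913 at 12 h, 8952, 9415 and 8952 at 24 h, 10718, 11636 and 13670 at 36 h, followed by 16524, 13296 and 13296 at 48 h. It was the only member called higher both at 12 h against 0 h (0.78 ± 0.13) and at 48 h against 12 h (0.82 ± 0.13; limma adjusted p = 0.00022 and 0.000354). At 48 h it was 3.03-fold above 0 h, and no cultured library overlapped an uncultured one.

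Itga8, an RGD-binding chain known as a receptor for nephronectin, scored 2258 in the tissue and 1700, 2580 and 2071 at 0 h. It scored 8303 and 7730 at 12 h, 12520, 8959 and 4766 at 24 h, 9421, 9810 and 8959 at 36 h, then 3781, 6573 and 5785 at 48 h. All 11 cultured libraries were above all 4 uncultured ones, although replicates at 24 h and 48 h differed widely (log2 change 1.33 ± 0.29 at 48 h; limma adjusted p = 0.0012). Itga5, the alpha chain of the classical fibronectin receptor, behaved differently. It scored 1010 in the tissue, 929, 877 and 1577 at 0 h and 2719 and 1460 at 12 h. From 24 h on it scored 1063 to 1477, within the 0 h range. Its call at 12 h (0.87 ± 0.26; limma adjusted p = 0.0109) rested on 12 h replicate 1, without which the change was 0.43 with a limma adjusted p of 0.2.

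Laminin-binding alpha chains moved in both directions. Itga3 scored 200 in the tissue and 453, 132 and 149 at 0 h, the highest being the library with high epithelial markers. It scored 1635 and 1515 at 12 h, 2048, 2325 and 2459 at 24 h, 1916, 1895 and 2096 at 36 h, followed by 1605, 1483 and 1535 at 48 h. No cultured library overlapped an uncultured one. The log2 change at 48 h was 2.89 ± 0.33 (limma adjusted p = 4.6e-06) and 3.45 ± 0.10 without the 0 h replicate 1. Itga7, a laminin receptor best known in muscle, scored 105 in the tissue and 30, 33 and 13 at 0 h. It scored 402 and 473 at 12 h, 342, 298 and 460 at 24 h, 224, 202 and 276 at 36 h, then 221, 191 and 317 at 48 h. Its rise was the largest among the integrin subunits with all libraries included, 17.8-fold at 12 h and 9.72-fold at 48 h (limma adjusted p = 6.2e-07 and 7.9e-07); at 48 h, without the 0 h replicate 1, that of Itgb4 was larger. Some smooth muscle genes were also higher in all cultured libraries. Acta2 and Tagln, an actin and an actin-binding protein of contractile cells, stood at 127101 in all 11 cultured libraries, and the sum of 7 smooth muscle and pericyte markers was 3213 to 3979 at 0 h and 255894 to 259066 in culture. The score of Acta2 and Tagln was the highest in the table, so their course within culture cannot be seen. Myh11 and Cnn1, also of contractile cells, were 462 to 467 and 1181 to 1232 at 12 h. They were 504 to 1718 and 995 to 2769 at 24 h, and 1261 to 1290 and 1832 to 2160 at 36 h. At 48 h they were 472 to 1231 and 966 to 2425. Des of the same list was 21 to 80 at 0 h, 303 and 336 at 12 h and 97 to 293 at 24 h. It was 53 to 315 at 36 h and 80 to 134 at 48 h, with 696 in the tissue. Within that list the pericyte markers Rgs5 (1908 to 2515 at 0 h, 64 to 170 in culture) and Kcnj8 were lower in culture. The part of these genes' cells in the change of Itga7 was not tested.

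Itga6 fell. The table lists a short non-coding transcript of this gene (707 bases, 6 exons). If the score is of that transcript and not of the whole gene, it need not follow the protein-coding form. It scored 3857 in the tissue and 4021, 4127 and 2825 at 0 h. It scored 1354 and 1362 at 12 h, 1596, 2129 and 2310 at 24 h, 1237, 1315 and 2073 at 36 h, followed by 1689, 1464 and 2022 at 48 h. All cultured libraries were below all uncultured ones (fell by 1.08 ± 0.21 on the log2 scale at 48 h; limma adjusted p = 0.000503).

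Itgb4 pairs with the alpha chain of Itga6 in epithelial hemidesmosomes. It scored 38 in the tissue, 252, 17 and 14 at 0 h, 61 and 59 at 12 h, 118, 257 and 212 at 24 h, 224, 248 and 326 at 36 h, then 232, 439 and 584 at 48 h. The 252 was in the 0 h library with high epithelial markers, and that library overlapped the 48 h range. Its log2 change at 48 h was 3.26 ± 0.81 (limma adjusted p = 0.00286) and 4.57 ± 0.38 without that library, and at 12 h it was called only without it (1.89 ± 0.41; limma adjusted p = 0.00222). The sum of the 7 epithelial markers was 2165 and 2618 at 12 h, above the 1466 and 1842 of the other 0 h libraries, 971 to 1997 at 24 h, 86 to 552 at 36 h and 335 to 1145 at 48 h. The part of epithelial cells in the change of Itgb4 was not tested at any time.

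**Figure D3:**
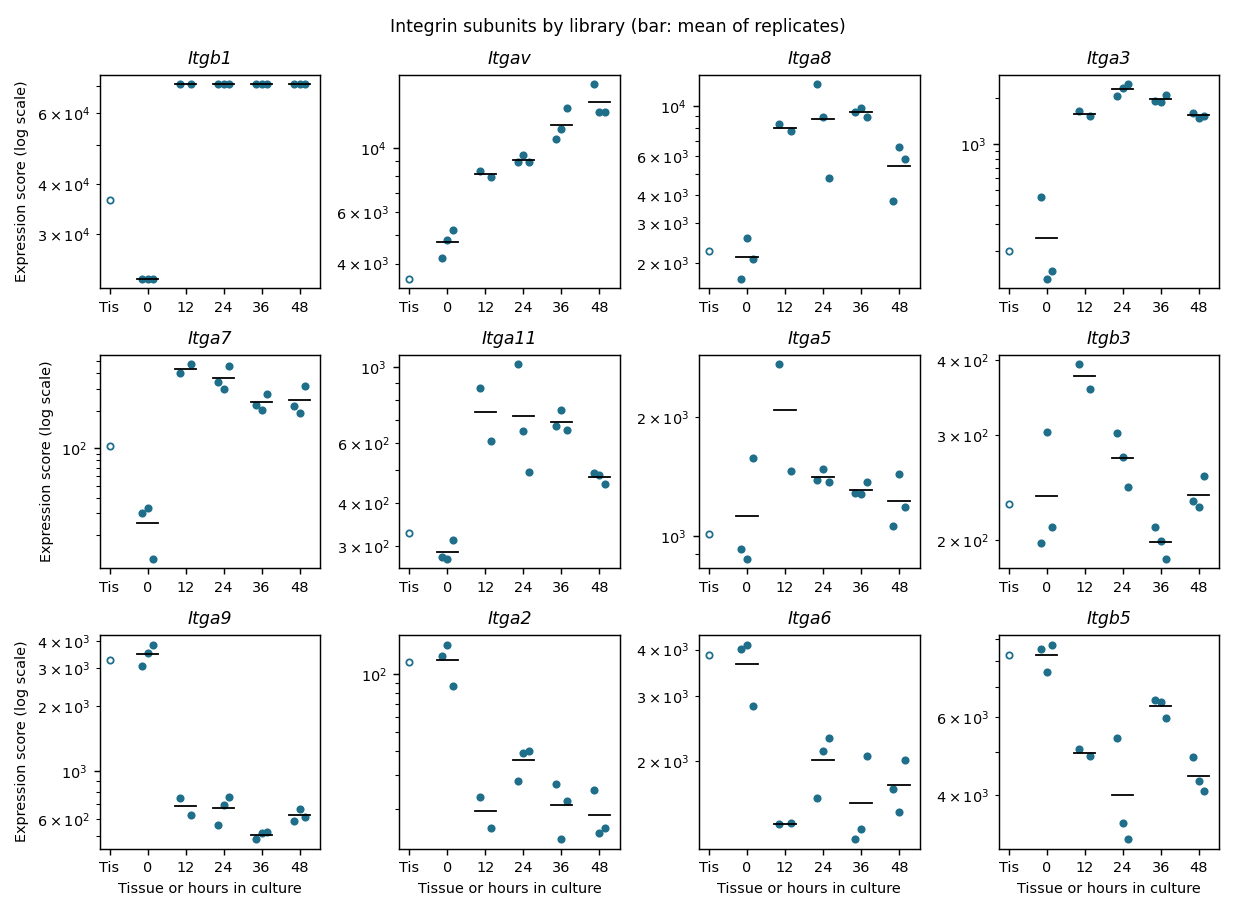
Expression score (log axis, its range set for each panel) of 12 integrin subunits in the tissue (Tis, open point) and after 0, 12, 24, 36 and 48 h of culture (filled points, 1 per library). Bars are replicate means. Itgb1, Itgav, Itga8, Itga3, Itga7 and Itga11 lie higher in all 11 cultured libraries than in all 4 uncultured ones, and Itga9, Itga2, Itga6 and Itgb5 lie lower.

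Collagen-binding chains also split. Itga11, a collagen receptor of mesenchymal cells, scored 328 in the tissue and 280, 276 and 312 at 0 h. It scored 870 and 609 at 12 h, 1018, 651 and 495 at 24 h, 673, 749 and 657 at 36 h, followed by 492, 485 and 457 at 48 h. It remained above every uncultured library, 2.51-fold at 12 h and 1.65-fold at 48 h (limma adjusted p = 0.00032 and 0.00709). Itga2, the collagen receptor of epithelia and platelets, scored 115 in the tissue and 124, 142 and 87 at 0 h, against 14 to 40 in the 11 cultured libraries. The groups did not overlap, and Itga2 was 6.06-fold lower at 48 h (limma adjusted p = 1.0e-05). Itga10 was called higher at 48 h (0.82 ± 0.35; limma adjusted p = 0.0494), but its 48 h values of 228, 77 and 104 overlapped the 54 to 79 at 0 h, and the tissue stood at 211. This call was lost without any 1 of the libraries compared except the 48 h replicate 2 (limma adjusted p from 0.055 to 0.253, and 0.0569 without the 0 h replicate 1). Itga1 was called at no time against 0 h.

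Itga9, a receptor for tenascin-C and osteopontin among others, had the lowest adjusted p of all members at 48 h. It scored 3264 in the tissue and 3079, 3533 and 3863 at 0 h, against 751 and 627 at 12 h, then 588, 670 and 613 at 48 h. Between those times it ran from 485 to 760. It was thus 5.06-fold lower at 12 h and 5.58-fold lower at 48 h (fell by 2.48 ± 0.12 on the log2 scale; limma adjusted p = 2.4e-09). Itga4, its closest relative and a fibronectin and VCAM1 receptor, was listed as a non-coding transcript and went the other way, from 483 to 522 at 0 h to 753 to 834 at 48 h (0.67 ± 0.14; limma adjusted p = 0.00067), with the tissue at 678.

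Of the other beta chains, Itgb5 and Itgb8, which both pair with the alpha chain of Itgav, were lower in all cultured libraries than in all uncultured ones. Itgb5 scored 8288 in the tissue and 8523, 7590 and 8736 at 0 h. It scored 5076 and 4896 at 12 h, 5383, 3454 and 3185 at 24 h, 6565, 6490 and 5978 at 36 h, followed by 4862, 4306 and 4086 at 48 h. It fell by 0.91 ± 0.16 on the log2 scale by 48 h (limma adjusted p = 0.000173), with a rise from 24 h to 36 h in between (0.70 ± 0.16; limma adjusted p = 0.00971). Itgb8 went from 467, 478 and 544 at 0 h to 301, 296 and 226 at 48 h, with 512 in the tissue (fell by 0.86 ± 0.13; limma adjusted p = 7.1e-05). Itgb3, a further partner of Itgav, scored 198, 303 and 210 at 0 h, 394 and 358 at 12 h, then 232, 227 and 256 at 48 h. It rose at 12 h and returned to its 0 h range (0.69 ± 0.17 at 12 h and 0.03 ± 0.15 at 48 h; limma adjusted p = 0.00406 and 0.861). Itgbl1 scored 1394 in the tissue, 1145, 1477 and 1312 at 0 h and 303 to 637 in the 11 cultured libraries, without overlap (fell by 1.62 ± 0.19 at 48 h; limma adjusted p = 6.1e-06).

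Against 0 h, 7 integrin subunits were called higher at all 4 times (Itga11, Itga3, Itga4, Itga7, Itga8, Itgav and Itgb1) and 5 were called lower at all 4 (Itga2, Itga6, Itga9, Itgb5 and Itgb8). Over all transcripts the shares were 23% and 21%. Of the 12, Itga4, Itgb5 and Itgb8 lost a call at 1 or more of the 4 times when some single library was left out. The 12 h call of Itgb8 was lost without either 12 h library or the 0 h replicate 3 (limma adjusted p from 0.0727 to 0.134). After 12 h few integrins changed further. Between 12 h and 48 h, 2 were higher (Itgav and Itgb4) and 3 lower (Itga5, Itgb3 and Itgb8). Without 12 h replicate 1 the calls of Itgb4, Itga5, Itgb3 and Itgb8 were all lost (limma adjusted p = 0.115, 0.494, 0.0725 and 0.139), and that of Itgav was kept. Over all members and the same interval, 3 were higher and 27 lower (4.84% and 43.5%, against 21.2% and 21% of all transcripts), and 24 of the 27 were cell-cell adhesion genes. Without 12 h replicate 1, 2 members were higher and 15 lower in this interval, against 13% and 13.6% of all transcripts.

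Cdh11, the cadherin of mesenchymal cells, had the highest score per kilobase among the cell-cell adhesion genes (5987 per kb at 0 h and 4556 per kb at 48 h). It scored 31878 in the tissue, 28872, 40680 and 31878 at 0 h, 28872 and 28872 at 12 h, 25064, 25064 and 28872 at 24 h, 23242, 23242 and 19258 at 36 h, followed by 23242, 25064 and 28872 at 48 h. The ranges at 0 h and 48 h touched at 28872. The fall of 0.38 ± 0.14 on the log2 scale was called (limma adjusted p = 0.0247) but not without the 0 h replicate 2 (0.122) or the 48 h replicate 1 or 2 (0.0849 and 0.0623), and neighbouring values are steps of the common scale.

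Cdh2, N-cadherin, was the only classical (type I) cadherin called higher at 48 h with all libraries (Cdh3 was also called without the 0 h replicate 1, and Cdh4 without the 0 h replicate 2), and its rise was late. It scored 1813 in the tissue, 1437, 1251 and 1476 at 0 h, and 1371 and 1149 at 12 h. It then scored 1936, 2180 and 1729 at 24 h, 3536, 3388 and 3641 at 36 h, then 5222, 4115 and 3702 at 48 h. The 0 h and 12 h libraries overlapped (change of -0.14 ± 0.14; limma adjusted p = 0.421), and the 36 h and 48 h libraries lay above all others. Cdh2 was 3.42-fold higher at 48 h than at 12 h (limma adjusted p = 2.3e-06), and it was the only cell-cell adhesion gene that was higher in that interval.

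Other type I cadherins showed a different course or no call. Cdh4, R-cadherin, scored 87, 123 and 72 at 0 h, 459 and 313 at 12 h, 225, 311 and 384 at 24 h, followed by 141, 139 and 118 at 48 h, with 114 in the tissue. It was 4.10-fold higher at 12 h and 2.85-fold lower at 48 h than at 12 h (limma adjusted p = 2.2e-05 and 0.000562). Against 0 h at 48 h it was called only without the 0 h replicate 2 (0.73 ± 0.23; limma adjusted p = 0.0131, and 0.055 with all libraries). Cdh1 and Cdh3, E- and P-cadherin of epithelia, were called at no time with all libraries. Cdh1 scored 563, 48 and 41 at 0 h and 5 to 174 in culture, and Cdh3 scored 538, 152 and 77 at 0 h and 99 to 378 in culture. In both, the first value was that of the 0 h library with high epithelial markers. Without that library, Cdh3 was called higher at 12 h (1.79 ± 0.34; limma adjusted p = 0.000948) and at 48 h (0.81 ± 0.31; limma adjusted p = 0.0374), and the change of Cdh1 at 12 h was 1.64 ± 0.89 (0.139). The epithelial marker sum was 1466 and 1842 in the other 0 h libraries, 2165 and 2618 at 12 h and 335 to 1145 at 48 h. The part of epithelial cells in the changes of Cdh3 and Cdh1 was not tested at either time. Cdh15, M-cadherin of muscle, was not called, and its scores differed widely within groups (15 to 31 at 0 h, 21 to 219 at 36 h).

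**Figure D4:**
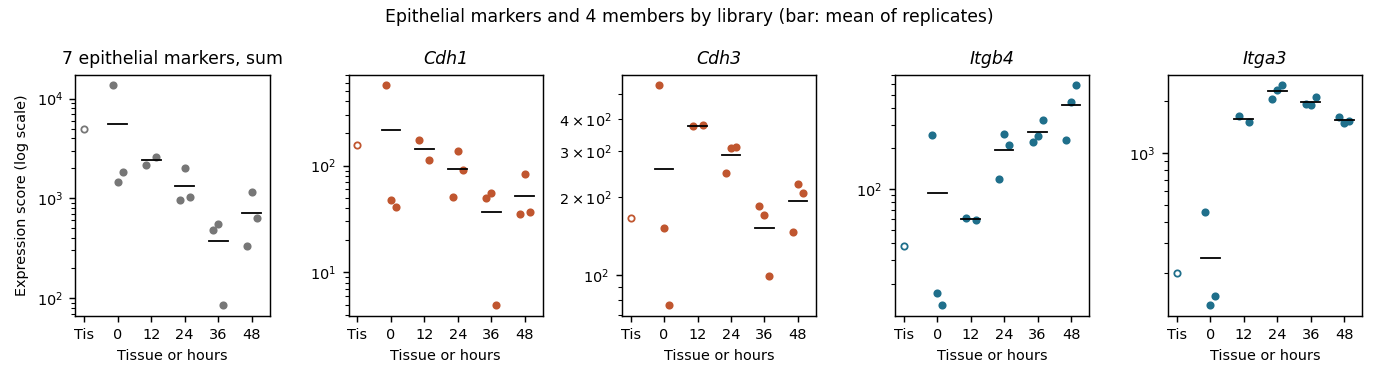
Summed score of 7 epithelial markers and scores of Cdh1, Cdh3, Itgb4 and Itga3 (log axes) in the tissue (Tis, open point) and by hours of culture, 1 point per library with bars at replicate means. The 0 h replicate 1 is the highest 0 h point in each panel, with a marker sum of 13504 against 1466 and 1842.

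Type II cadherins and the remaining cadherins moved both ways. Cdh12, a cadherin best known from brain, and Cdh24, another type II cadherin, fell at 12 h and fell further by 48 h. Cdh12 scored 427 in the tissue, 399, 499 and 666 at 0 h, 172 and 144 at 12 h, then 54, 122 and 60 at 48 h (6.86-fold lower than at 0 h; limma adjusted p = 1.3e-06). Cdh24 scored 449 in the tissue, 472, 522 and 437 at 0 h, 173 and 144 at 12 h, followed by 43, 106 and 63 at 48 h (7.11-fold lower; limma adjusted p = 1.4e-06). Neither had a cultured library within the uncultured range. Their further fall from 12 h to 48 h was not called without 12 h replicate 1 (limma adjusted p = 0.0965 and 0.0663). Cdh6, Cdh10 and Cdh18 were higher at 48 h by 0.58 ± 0.23, 0.35 ± 0.09 and 0.42 ± 0.15 (limma adjusted p = 0.039, 0.00317 and 0.021). The call of Cdh6 at 48 h was lost without the 0 h replicate 1 or 2 or the 48 h replicate 1 or 2 (limma adjusted p from 0.0816 to 0.128), and that of Cdh18 without the 0 h replicate 2 or the 48 h replicate 1 or 3 (0.0541 to 0.0564). Cdh10 was also called at 12 h, which was lost without the 0 h replicate 1 (0.0521) or either 12 h library (0.0771 and 0.0572). Cdh8 scored 205 to 221 at 0 h and 303 in the tissue, and it was at or below 97 in culture, listed at 0 in 2 libraries, 1 at 24 h and 1 at 36 h. It was called lower at 24 h and 36 h (limma adjusted p = 0.0352 and 0.0232), which was lost at 24 h without any 1 of the 0 h libraries or 24 h replicate 2 (0.0676 to 0.176) and at 36 h without the 0 h replicate 2 or 36 h replicate 2 (0.0531 and 0.117). It was not called at 48 h, where it scored 28, 14 and 40 (limma adjusted p = 0.0881).

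Cdh23, a long cadherin of the hair cell tip link, was at low level. It scored 16 in the tissue, 10, 13 and 14 at 0 h, 178 and 117 at 12 h, 48, 34 and 88 at 24 h, 40, 41 and 52 at 36 h, then 39, 30 and 38 at 48 h. Its log2 change was 3.46 ± 0.36 at 12 h and 1.46 ± 0.32 at 48 h (limma adjusted p = 4.7e-06 and 0.00127), and it stayed above all uncultured libraries throughout. Cdh13, a cadherin held by a lipid anchor, was listed as a non-coding transcript and scored 156, 270 and 283 at 0 h, 517 and 422 at 12 h, followed by 332, 273 and 220 at 48 h. It was higher at 12 h and lower again at 48 h than at 12 h (limma adjusted p = 0.00761 and 0.042).

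**Figure D5:**
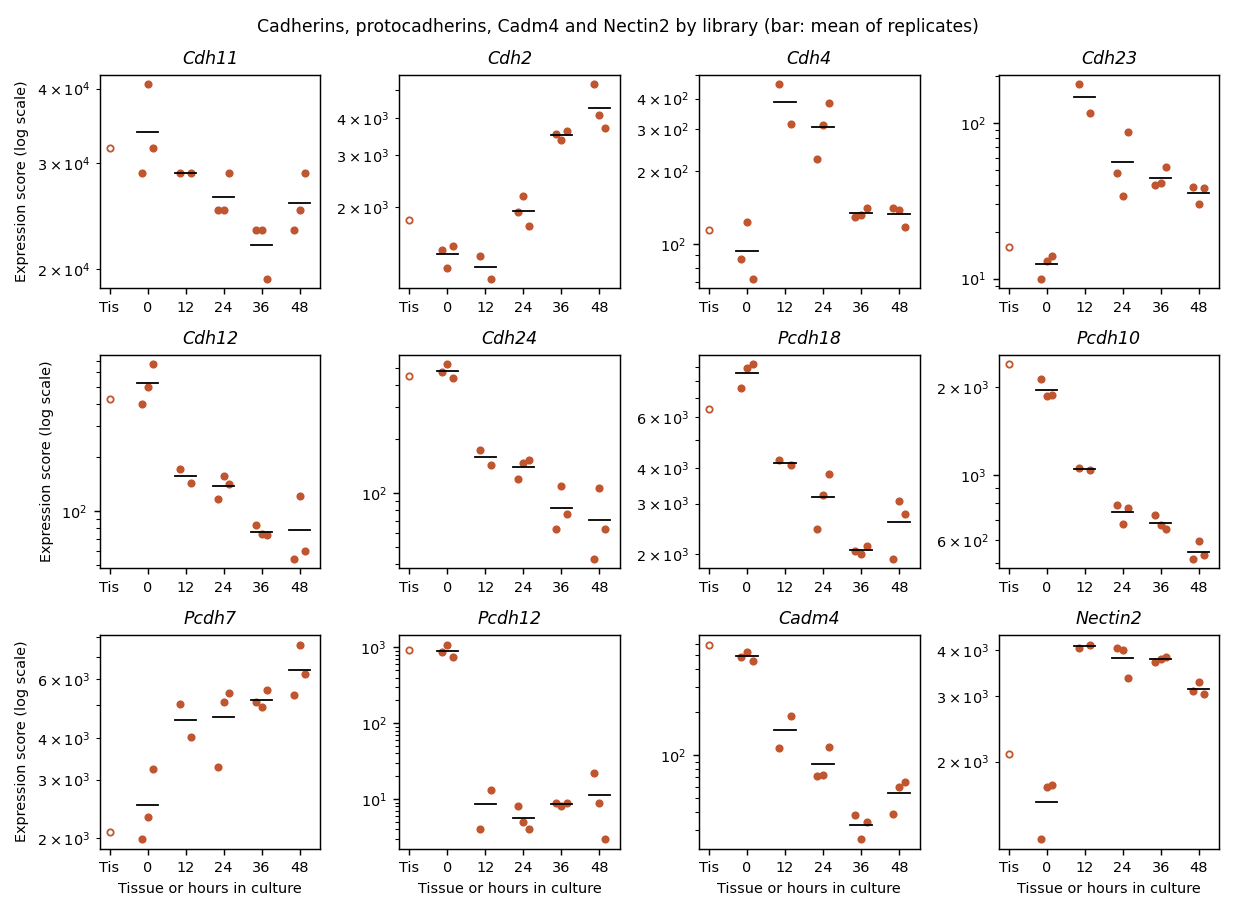
Expression score (log axis, its range set for each panel) of 12 cell-cell adhesion genes in the tissue (Tis, open point) and after 0, 12, 24, 36 and 48 h of culture (filled points, 1 per library). Bars are replicate means. Cdh2 is highest at 48 h (3702 to 5222), Cdh4 and Cdh23 are highest at 12 h, and Cdh12, Cdh24, Pcdh18, Pcdh10, Pcdh12 and Cadm4 lie lower in all cultured libraries than in all uncultured ones.

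All 11 clustered protocadherins with a value were lower at 48 h than at 0 h (34% of all transcripts were), with a median log2 change of -1.36, and 10 of the 11 were also lower at 48 h than at 12 h (21% of all). At 12 h, 4 of the 11 were lower, or 36.4% against 28.3% of all transcripts, and 1 was higher. Of the 12 h calls, those of Pcdhb7 and Pcdhb22 were lost without 12 h replicate 1 (limma adjusted p = 0.161 and 0.0979), that of Pcdhb7 also without 12 h replicate 2 or the 0 h replicate 2 or 3 (0.0911 to 0.0994), and Pcdhb21 was called lower only without the 0 h replicate 1 (0.0238). The summed score of the 9 beta-cluster genes was 1989 in the tissue, 1675 to 1753 at 0 h, 1385 to 1407 at 12 h, 950 to 1141 at 24 h, 759 to 798 at 36 h and 634 to 749 at 48 h. No neighbouring time points overlapped in this sum. Pcdhb7 had the largest change of the 9, from 110, 141 and 151 at 0 h to 25, 33 and 33 at 48 h, with 73 and 81 at 12 h and 148 in the tissue (4.30-fold lower at 48 h; limma adjusted p = 1.4e-05). Pcdhb11 went from 115, 103 and 95 to 23, 23 and 44, and Pcdhb21 from 84, 140 and 110 to 28, 31 and 32. These were 3.55-fold and 3.52-fold lower (limma adjusted p = 7.8e-05 and 1.3e-05). Genes of the beta cluster are close in sequence, and reads could be split between them, so single values are uncertain.

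Pcdhgc5 and Pcdhac2, isoforms at the end of the gamma and alpha clusters, differed from the beta genes and from each other. Their transcripts end in exons shared by the whole cluster, so the scores may include other isoforms. Pcdhgc5 scored 4882 in the tissue, 5449, 4944 and 8337 at 0 h, 2942 and 1746 at 12 h, then 2387, 2430 and 2585 at 48 h. It had fallen by 12 h and did not differ further by 48 h beyond its spread (0.12 ± 0.22; limma adjusted p = 0.687). Pcdhac2 scored 335 in the tissue, 375, 503 and 696 at 0 h, 1079 and 828 at 12 h, 682, 653 and 788 at 24 h, 413, 416 and 435 at 36 h, followed by 275, 409 and 404 at 48 h. It was the only member called in opposite directions against 0 h, higher at 12 h and lower at 48 h (limma adjusted p = 0.00515 and 0.0416), and the 0 h and 48 h libraries overlapped. The call at 12 h was lost without 12 h replicate 1 (0.0639) and that at 48 h without 0 h replicate 2 or 3 or 48 h replicate 1 (0.0777 to 0.2).

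Of the 11 other protocadherins, 8 were lower and 2 higher at 48 h (72.7% and 18.2%, against 34% and 37.1% of all transcripts). Pcdh18 was the second highest cell-cell adhesion gene per kilobase at 0 h (1654 per kb). It scored 6400 in the tissue, 7568, 8916 and 9163 at 0 h, 4264 and 4076 at 12 h, 2438, 3210 and 3819 at 24 h, 2051, 2009 and 2132 at 36 h, then 1929, 3071 and 2764 at 48 h. All cultured libraries were below all uncultured ones (3.35-fold lower at 48 h; limma adjusted p = 1.3e-06). Pcdh10 scored 2388 in the tissue, 2136, 1858 and 1878 at 0 h, 1057 and 1036 at 12 h, 790, 678 and 772 at 24 h, 728, 674 and 653 at 36 h, followed by 517, 593 and 531 at 48 h. Replicates were close, and the fall of 1.84 ± 0.09 on the log2 scale had the lowest adjusted p of the cell-cell adhesion genes (2.5e-09 in limma). Pcdh1 went from 305, 371 and 485 at 0 h to 80, 65 and 55 at 48 h, with 311 in the tissue (5.70-fold lower; limma adjusted p = 1.5e-05).

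Pcdh12, a protocadherin of endothelial cells, had the largest change of all members. It scored 921 in the tissue and 865, 1089 and 740 at 0 h, against 3 to 22 in the 11 cultured libraries. It was 91.3-fold lower at 48 h (fell by 6.51 ± 0.55 on the log2 scale; limma adjusted p = 3.4e-07). Endothelial markers moved with it. The sum of 8 of them was 13330 in the tissue, 9228 to 10902 at 0 h and 399 to 865 in culture, Cldn5 was listed at 0 in all but 1 cultured library, where it was 3, and Kdr kept 254 to 733. Their part in the change of Pcdh12 was not tested.

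Against the others, Pcdh7 rose. It scored 2096 in the tissue, 1995, 2325 and 3227 at 0 h, 5044 and 4029 at 12 h, 3271, 5121 and 5434 at 24 h, 5121, 4933 and 5550 at 36 h, then 5388, 7604 and 6211 at 48 h. It was 2.57-fold higher at 48 h (limma adjusted p = 6.5e-05) and by then the second highest cell-cell adhesion gene per kilobase (1706 per kb). Pcdh19 scored 874, 956 and 1290 at 0 h, 2342 and 1796 at 12 h, followed by 1489, 1280 and 1535 at 48 h. It was higher at 12 h (limma adjusted p = 0.000557), and its call at 48 h (0.0208) was lost without any 1 of 4 libraries, the 0 h replicates 1 and 2 and the 48 h replicates 1 and 3.

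Among the immunoglobulin-type receptors, Cadm2, Cadm3 and Cadm4 were called lower at 48 h, Nectin2 and Nectin3 were called higher, and Cadm1 and Nectin1 were not called. Cadm4, known from myelinating glia and epithelia, scored 595 in the tissue, 487, 530 and 455 at 0 h, 112 and 189 at 12 h, 72, 73 and 115 at 24 h, 38, 26 and 34 at 36 h, then 39, 60 and 65 at 48 h. No cultured library overlapped an uncultured one, and it was 9.02-fold lower at 48 h (limma adjusted p = 2.8e-07). Of 7 glia and neuron markers 3 had a value, and their summed score was 805 in the tissue, 276 to 851 at 0 h and 534 to 2601 in culture. Within them Erbb3, a receptor of glial precursors, was 155 to 545 at 0 h and 34 to 205 in culture. The other 2 were higher in culture, Tubb3 with 77 to 258 at 0 h and 269 to 1673 in culture and Stmn2 with 42 to 48 and 172 to 838. The part of glia and neurons in the change of Cadm4 was not tested. Nectin2 scored 2097 in the tissue, 1239, 1712 and 1733 at 0 h, 4057 and 4136 at 12 h, 4057, 3994 and 3357 at 24 h, 3715, 3772 and 3829 at 36 h, followed by 3099, 3284 and 3037 at 48 h. It stayed above all uncultured libraries, 2.65-fold higher at 12 h and 2.03-fold at 48 h (limma adjusted p = 1.7e-06 and 4.8e-06). Nectin3, its binding partner on neighbouring cells, went from 947 to 1063 at 0 h to 1567 to 1586 at 48 h, with 1079 in the tissue (0.66 ± 0.07; limma adjusted p = 3.2e-06). Cadm2 went from 395, 420 and 518 at 0 h to 269, 305 and 281 at 48 h (limma adjusted p = 0.00055), and the tissue, at 296, lay within the cultured range. Cadm3 was called lower at 48 h (limma adjusted p = 0.00306), and at 12 h only without the 0 h replicate 1 (0.0316).

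Between neighbouring time points few members changed. From 12 h to 24 h, 1 was higher (Cdh2) and 4 were lower, against 4.59% and 3.67% of all transcripts, and 20 members had an unadjusted p below 0.05 (32.3%, against 24.8% of all). By limma 0 were called without 12 h replicate 1 (1.12% higher and 0.406% lower of all transcripts). Without 24 h replicate 2, 0 were called as well (1.87% and 1.08% of all). From 24 h to 36 h, 4 were higher and 9 lower, against 10% and 9.64%. Libraries with the same replicate number deviated together between these times. With that number as a block 14 members were called, and the share of all transcripts in that fit is not given here. Cdh12 and Pcdhb14 were lost (limma adjusted p = 0.0516 and 0.059) and Cadm3, Cdh24 and Pcdh20 were gained (0.0329, 0.048 and 0.0306). From 36 h to 48 h, 0 of 62 were called by limma, against 0% and 0.0248% of all transcripts, and 12 members had an unadjusted p below 0.05 (5 higher, 7 lower; 19.4%, against 13.4% of all). Against 0 h, 15 were higher and 28 lower at 24 h (35% and 31.8% of all), and 18 were higher and 32 lower at 36 h (36% and 34% of all). In all, 8 members were higher at 12 h than at 0 h and then lower at 48 h than at 12 h, against 5.52% of all transcripts. They were Nectin2, Pcdhac2, Cdh13, Cdh23, Pcdh19, Cdh4, Itga5 and Itgb3, and 0 members showed the opposite order by limma, against 6.38% of all transcripts. Both calls were kept in every fit that left out 1 library for Cdh23 and Cdh4, and at least 1 was lost in some such fit for the other 6.

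Counted by libraries without a test, 16 members had all 48 h values above all 0 h values (37.3% of all transcripts did) and 30 had all below (34.6% of all). Over all libraries, 10 members were higher in all 11 cultured libraries than in all 4 uncultured ones and 26 were lower, against 22.2% and 20% of all transcripts. Of these, 6 and 5 were integrin subunits and 4 and 20 were cell-cell adhesion genes. The tissue library was within the 0 h range for 29 members, above it for 24 and below it for 9 (38.7% and 14.5%, against 29.7% and 32% of all transcripts). It was over 2-fold above the 0 h mean for 3 members (2.56% of all transcripts) and over 2-fold below it for 0 (1.22% of all). The 3 were Cdh15 (213, against 15 to 31 at 0 h), Itga7 (105, against 13 to 33) and Itga10 (211, against 54 to 79). With 1 tissue library there was no test.

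Transcripts of proteins that join integrins to actin were called higher more often than lower. Of 33 such genes listed, 31 had a value, of which 18 were higher, 6 lower and 7 not called at 48 h by limma, with a median log2 change of 1.15. The shares of 58.1% higher and 19.4% lower stood beside 37.1% and 34% of all transcripts. Vcl, vinculin, went from a mean score of 4304 ± 805 (SD, n = 3) at 0 h to 45590 ± 6944 (n = 2) at 12 h and 28225 ± 6327 (n = 3) at 48 h. Tgfb1i1, the focal adhesion protein Hic-5, was 12.5-fold higher at 48 h (limma adjusted p = 5.8e-08), and Lims2, a partner of ILK, had a mean of 0.333 at 0 h and 433 ± 115 at 48 h and was listed at 0 in the tissue. Tns2, a tensin, went the other way, 6.60-fold lower at 48 h (limma adjusted p = 6.8e-06).

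Of 20 cadherin and nectin adaptors, all with a value, 9 were higher, 5 lower and 6 not called at 48 h, with a median log2 change of 0.29 (45% higher and 25% lower, against 37.1% and 34% of all transcripts). Pkp2, a desmosomal plakophilin, had a mean score of 9 ± 1.73 at 0 h and 820 ± 357 at 48 h (limma adjusted p = 2.3e-09). Shroom3, an actin-binding protein of apical junctions, was 6.51-fold higher and Iqgap1 2.35-fold higher (limma adjusted p = 3.6e-08 and 2.2e-07), while Ctnnb1, beta-catenin, was 2.84-fold lower (1.4e-06). Of 23 integrin ligands listed, 22 had a value, and 9 were higher, 3 lower and 10 not called, with a median of 0.26. The share higher was 40.9%, near the 37.1% of all transcripts, and the share lower was 13.6%, against 34%. Thbs1, thrombospondin, and Ccn2, both matrix proteins bound by integrins, were 16.8-fold and 13.9-fold higher (limma adjusted p = 3.6e-12 and 9.7e-08). Spp1, osteopontin, and Mfge8, an RGD protein, were 4.80-fold and 3.74-fold higher (limma adjusted p = 3.3e-05 and 9.3e-09).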

How the data were processed

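The authors isolated total RNA from mDMCs and dental mesenchymal tissue and sequenced TruSeq libraries on an Illumina HiSeq 2000. Per their methods, reads were trimmed, mapped to the mouse transcriptome (mm10, Ensembl) with bowtie and quantified with RSEM, for which the sources used here name differing versions (1.1.21 in the submitters' processing notes). The deposited table holds a score per row and library, a normalized whole number labelled as cpm although the library totals exceed that unit. Each row carries a transcript identifier, while the table's label names genes, and the 11973 matched rows fell on 11960 genes. Scores may therefore be of whole genes, and levels per kb and remarks on non-coding transcripts would then have no basis. The step that gave all libraries 1 distribution is not given in the sources used here, nor is any correction for transcript length, so levels were compared between genes only as score per kb of listed transcript. Changes in total RNA cannot be seen.

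Transcripts were named with a GRCm38 annotation (11973 of 12089 matched). Of the 62 members, 58 were listed as protein-coding transcripts. Libraries were grouped by the time in their labels. The 14 mDMC libraries were fitted in limma 3.58.1 (R 4.3.3) on log2(score + 1), with 1 mean per time point and an intensity trend, over the 12079 transcripts that reached 1 ppm of a library's total in 2 or more libraries. All 62 members passed. The pseudocount of 1 understates changes of low genes. The test was two-sided, and a member was called at a Benjamini-Hochberg adjusted p below 0.05 over all transcripts tested. The tissue, with 1 library, was not fitted. The authors tested counts with DESeq2, which could not be used on scores.

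Named with values were, per list, the 10 largest called changes at 48 h against 0 h without overlap of libraries, the 3 highest members per kb at 0 h and at 48 h, members called in opposite directions at 12 h and from 12 h to 48 h, Itgb1, Itgav, Itga5, Cdh2, Cdh11 and Itgbl1, and the 4 largest called changes of each pathway list. Other members were named after their values were seen, to complete their group. The members and all lists were chosen with earlier results of these data known. Alternatives were other pseudocounts (0.1 and 10), no filter, a mean of at least 5 ppm, median-ratio scaling, no trend, the compared time points only, the replicate number as a block (it pairs the libraries of 24 h and 36 h by the correlation of their deviations, not by the labels), leaving out each replicate, and an unadjusted p below 0.05 with over 2-fold change. The fits were tested on simulated data. Summaries and plots used Python 3.11.15, numpy 2.4.6, pandas 2.3.3 and matplotlib 3.10.9.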

Additional observations from a re-analysis of the deposited data

How the results depend on the processing

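Among the comparisons named, 99 single-gene values were recomputed under the alternatives. Of 1304 recomputed values, 1244 kept their direction and side of the threshold, 53 were no longer called, 7 became called and 0 reversed. Counts of members called were within 1.5 times the reported count under other pseudocounts, filters, scaling and without the trend. With an unadjusted p below 0.05 and over 2-fold change, 22 members were called at 12 h and 26 at 24 h against 0 h, 2 at 24 h against 12 h, 2 at 36 h against 24 h and 15 at 48 h against 12 h. By the same threshold 5 integrin subunits were higher and 3 lower at 12 h, and 6 were higher and 3 lower at 48 h. For cell-cell adhesion genes, 5 rose and 8 fell at 12 h, and 4 rose and 20 fell at 48 h. This threshold requires a larger change by its construction. The shares of all transcripts at it are not given here, so these counts are not set against them. With only the compared time points in the fit, which leaves fewer libraries, 0 members were called at 24 h against 12 h. The share of all transcripts in that fit is not given here either.

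Leaving out 1 library gave 0 to 6 members called at 24 h against 12 h (0 without 12 h replicate 1 or without 24 h replicate 2), 5 to 11 at 36 h against 24 h and 17 to 28 at 48 h against 12 h (17 without 12 h replicate 1). Of all transcripts, 1.12% to 4.73% were higher and 0.406% to 5.3% lower at 24 h against 12 h in these fits. The shares were 5.17% to 10.9% and 3.75% to 9.98% at 36 h against 24 h. At 48 h against 12 h they were 13% to 19.5% and 13.6% to 18.5%. The cell-cell adhesion genes higher at 12 h numbered 5 to 10 (5 without 12 h replicate 1), beside 25.7% to 29.4% of all transcripts. The calls after 12 h thus rest on few libraries, and 12 h has only 2. With the replicate block, 40 members were called at 12 h and 51 at 48 h against 0 h, 14 at 36 h against 24 h and 31 at 48 h against 12 h. The shares of all transcripts with the block are not given here, so these counts are not compared with them. Over all times, 11 of 26 pairs of libraries with the same replicate number had correlated deviations above 0.1 (median 0.07), against 6 of 52 pairs with different numbers (median -0.04). Of the comparisons made, every same-number pair was above 0.1 in that of 36 h with 24 h only (0.13 to 0.16), where the numbers were taken to pair the libraries. Between 24 h and 48 h, which were not compared, the 3 pairs had 0.20 to 0.32. In the other comparisons not every same-number pair was above 0.1, and whether those libraries are paired is not known from the labels. Among members there, the block added Cdh15 (36 h and 48 h against 0 h, 48 h against 12 h), Cdh8 (48 h against 0 h), Pcdhac2 and Pcdhb17 (24 h against 0 h), lost Cdh4 (36 h against 0 h) and Pcdh15 (24 h against 12 h), and changed no other call. Sequencing depth is unknown, and rank-bound scores limit what can be seen among the highest transcripts.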
